A study of Neurospora crassa with 94 samples.

Results

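The 245 genes described here are genes of the filamentous fungus Neurospora crassa. They were higher than in wild type in isw, the strain labelled as lacking the chromatin remodeller ISWI. They were also higher in 2 double mutants whose labels name acf, and their ratio to wild type in set-7 stayed under a ceiling. They were chosen by their measured values, as ratios of group means, with 1 added to each mean. The rule asked for a ratio over wild type of at least 4 in isw, of at least 2 in acf iaf-1 and of at least 2 in acf iaf-2, all in TPM (a level corrected for the length of the gene and the size of the library). It also asked for a ratio under 1.3 in set-7, in CPM (reads scaled for library total alone). Of 10397 genes, 618 passed the isw threshold, 378 of these also passed both double mutant thresholds, and 261 passed all 4. The rule leaves out 16 of the 261 by name, and the 245 that remain are 2.36% of all genes. Because these contrasts chose the genes, values of isw, set-7 and both of these double mutants against wild type are given below as a description, with no test.

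ISWI is an ATPase that slides nucleosomes along DNA and evens out the spacing between them. In flies and mammals it works in several complexes, and ACF is the complex it forms with the Acf1 subunit. PRC2, whose catalytic subunit in Neurospora is SET-7, methylates lysine 27 of histone H3, a mark that covers long domains of silent genes in this fungus, many of them near chromosome ends. Strains without ISWI, without its partner proteins and without PRC2 were compared for the silent genes that respond to the loss of each.

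The study grew mycelial cultures in constant light and measured RNA in 41 libraries, in 14 groups of 3 libraries each except iaf-1 iaf-2, which has 2. The groups fall into 3 library series, called 111, 112 and 118 after the first digits of their labels. Series 111 holds wild type (WT) and the single mutants acf, iaf-1 and iaf-2, series 112 holds WT, set-7, acf and the triple mutant acf iaf-1 iaf-2, and series 118 holds WT, isw, the same triple mutant and its 3 double mutants acf iaf-1, acf iaf-2 and iaf-1 iaf-2. The labels give genotypes by these names, with no allele or promoter and no strain background. Those of acf in series 111 also carry the tag pass0, which they do not explain and which those of acf in series 112 lack. Nothing in them says that replicates were grown separately, so a p-value here speaks only of how far these libraries scatter, and that scatter may be technical. RNA came from whole mycelium, in which fewer cells with a transcript and less transcript per cell cannot be told apart.

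Series 111 libraries held 5332503 to 9021398 reads, those of series 112 held 5652592 to 22582163, and those of series 118 held 11711993 to 21973649. Reads of the isw gene fell to 2.12 TPM in isw against 33.0 in WT, reads of iaf-1 (NCU00412) to 0 CPM in iaf-1 against 49.7, and reads of iaf-2 (NCU09388) to 0.0848 CPM in iaf-2 against 51.5. Reads of the acf gene (NCU00164) were not lost where the label says acf: their mean was 188 CPM against 43.1 in WT of series 111, and 74.3 against 30.1 in WT of series 112. In series 118 it was 25.1 TPM in acf iaf-1, 24.6 in acf iaf-2 and 26.8 in the triple mutant, against 14.9 in WT and 13.1 in iaf-1 iaf-2. It was highest in isw, at 43.0 TPM. Reads of iaf-1 and iaf-2 were themselves lower in acf of series 111, at 10.1 and 23.6 CPM against 49.7 and 51.5 in WT. In series 112 they were at 13.5 and 13.1 CPM in acf against 22.3 and 15.1 in WT. In series 112 set-7 reads were 4.42 CPM in the libraries labelled set-7 against 7.29. The labels do not say which part of the acf or set-7 gene was removed. Below, acf and set-7, alone or in a double or triple mutant, thus mean the libraries labelled so. In series 111 each group holds 1 pair of libraries far closer to each other than to the remaining one (WT 1 and 3, acf 1 and 2, iaf-1 1 and 3, iaf-2 1 and 2). A chi-square per degree of freedom over genes was 1.55 to 1.97 within these pairs and at least 7.10 between any other replicates, so each result of series 111 that changes is also given with each close pair summed to 1 library.

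Most of the 245 genes had a low level in wild type. The rule set no limit on this level, but a low WT mean in series 118 raises the ratios it used. Its set-7 ceiling, which used WT of series 112, is also easier to meet near silence. Only WT of series 111 took no part in the rule. The median over the genes of the mean level was 0.288 TPM in WT of series 118, where the median of all genes was 17.0 TPM, and 167 of the 245 were under 1 TPM. In 9 genes the WT mean was above that median of all genes, up to 114 TPM in inv. In 154 of them the WT mean was under 1 in all 3 series, on the TPM scale in series 118 and on the CPM scale in the others. No read was counted in any WT library for 44 genes in series 118, for 53 in series 112 and for 69 in series 111. A count of 0 allows up to 3 reads over a group's libraries, which covers counting error only.

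In isw every one of the 245 had reads, 184 reached 10 TPM, and the median of the mean levels was 20.4 TPM, near the 19.0 TPM of all genes in those libraries. The median over the genes was 20.7, 20.3 and 20.7 TPM in the 3 isw libraries and 0.284, 0.366 and 0.266 in the 3 WT libraries, so the groups did not overlap. In the double mutants the medians were 9.03, 9.50 and 8.69 TPM (acf iaf-1) and 8.90, 7.65 and 8.76 TPM (acf iaf-2). Both double mutants lay between WT and isw, and they overlapped each other.

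The triple mutant and iaf-1 iaf-2 were not used by the rule, but they share its WT libraries, so their ratios to WT are also a description. The median over the genes was 20.1, 21.2 and 21.7 TPM in the 3 triple mutant libraries, which overlapped isw, and 4.12 and 3.21 TPM in the 2 iaf-1 iaf-2 libraries, which lay between WT and the double mutants. The ratio of means to WT had a median of 10.1 in isw (quartiles 6.46 and 20.5), of 10.6 in the triple mutant, of 5.42 in acf iaf-1, of 5.02 in acf iaf-2. It was 2.48 for iaf-1 iaf-2, for which the rule set no minimum, unlike acf iaf-1 and acf iaf-2. The ratio was at least 2 in the triple mutant for all 245 genes (13.9% of all genes) and in iaf-1 iaf-2 for 140 (6.88% of all genes). Only NCU06327 fell to a ratio of 0.5 or less in iaf-1 iaf-2 (1.1% of all genes), with 9.71 and 15.8 TPM against 32.1, 25.8 and 30.9 in WT. NCU06327 is outside the rule for named genes and is named because its count is 1.

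**Figure D1:**
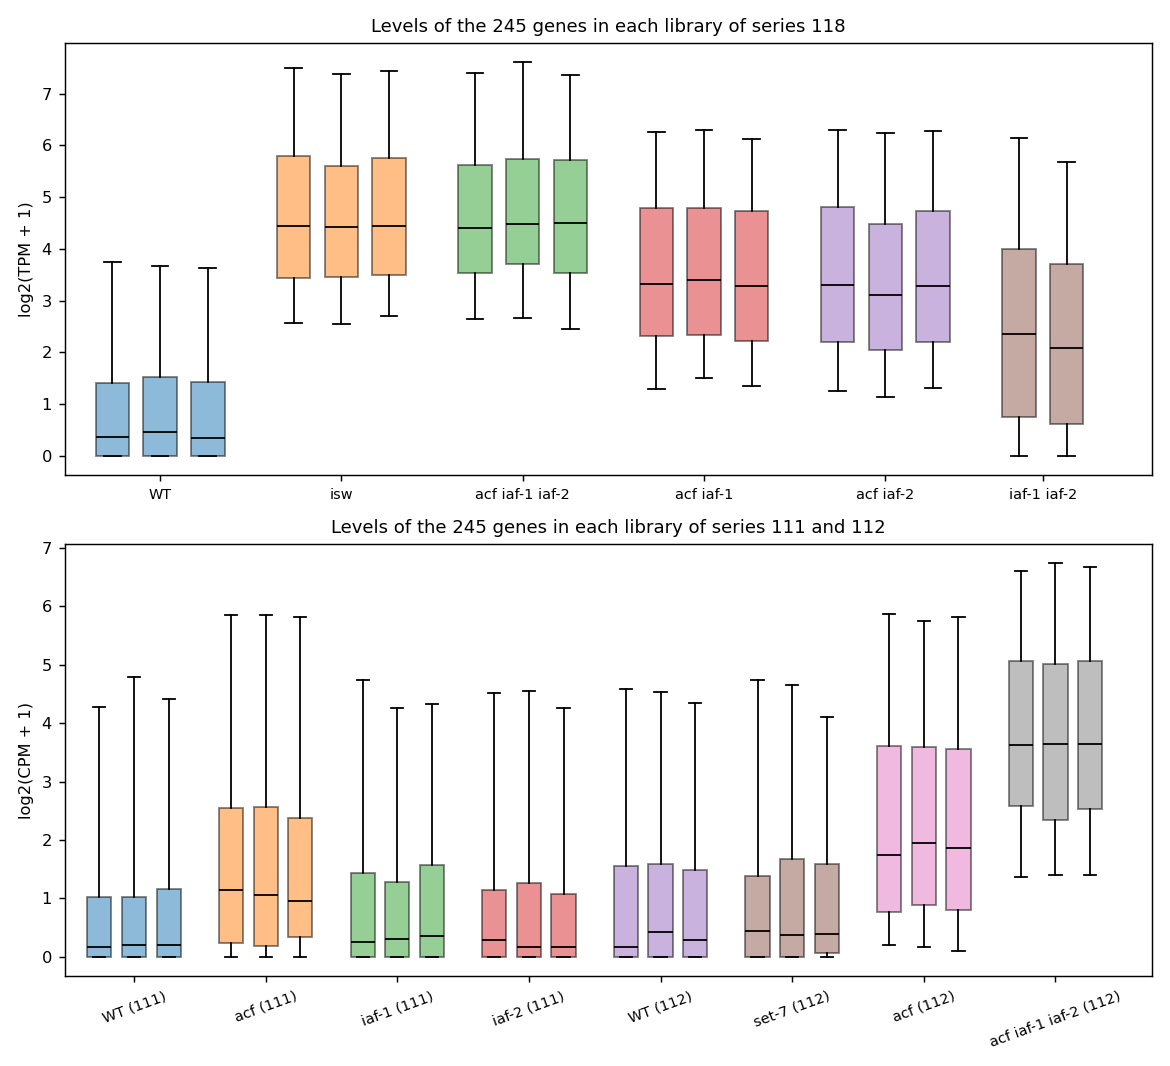
Levels of the 245 genes in each library, as log2(TPM + 1) in series 118 (top) and log2(CPM + 1) in series 111 and 112 (bottom). Each box is 1 library, with the median as a black line, the quartiles as the box and the 5th and 95th percentiles as whiskers; the isw and triple mutant boxes overlap, with library medians between 20.1 and 21.7 TPM, and the 3 WT boxes of series 118 have medians of 0.266 to 0.366 TPM.

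The thresholds fell in a continuous range of ratios. The gene just inside the isw threshold was NCU05017 at 4.00 and the one just outside was NCU00781 at 3.99, and 199 further genes failed only there. For acf iaf-1 the pair was NCU09026 at 2.00 and NCU08087 just below it, with 40 genes that failed only there. For acf iaf-2 it was NCU01325 at 2.02 and NCU05883 at 1.98, with 28 genes. For set-7 it was NCU09060 at 1.29 and NCU02516 just above the ceiling, with 111 genes. The 245 genes had a median set-7 ratio of 1.00, and the lowest was 0.381. The 1 added to each mean holds this ratio close to 1 for a gene near silence in both strains. The ceiling thus does not show that such a gene was unchanged in set-7.

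The part of the isw gain that each strain showed, as a percentage of the difference between the isw and WT means in TPM, had a median of 105% in the triple mutant. It was 47.4% for acf iaf-1, 43.4% for acf iaf-2, and 15.5% for the strain iaf-1 iaf-2. The rule set a minimum ratio for acf iaf-1 and acf iaf-2 but none for iaf-1 iaf-2. The choice of genes thus favours both acf double mutants over iaf-1 iaf-2, here and in the counts that follow. The triple mutant mean was within 1.5-fold of the isw mean for 202 of the 245 genes and 10-fold or more below it for 0. The same counts were 78 and 23 in acf iaf-1, 71 and 25 in acf iaf-2, and, for iaf-1 iaf-2, 32 and 92. The 2 acf double mutants were within 2-fold of each other for 199 genes.

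The 8 genes with the largest isw ratios, chosen by a contrast of the rule, are described first, and none of them has a gene symbol. NCU16930, on chromosome V, was at 0.165, 0.0976 and 0.417 TPM in WT and at 360, 377 and 335 TPM in isw. In the triple mutant it was at 179, 233 and 157 TPM, in acf iaf-1 at 2.46, 4.00 and 3.07, in acf iaf-2 at 6.49, 4.72 and 4.44, and in iaf-1 iaf-2 at 0.0567 and 0.266. The triple mutant was thus below isw in every library and above both double mutants in every library, and iaf-1 iaf-2 overlapped WT. NCU08796, on chromosome III, was at 305, 336 and 339 TPM in isw and 332, 399 and 410 TPM in the triple mutant, against 0.668, 0 and 0.106 in WT. Its double mutants stood far apart from each other, at 25.3, 25.0 and 27.3 TPM in acf iaf-1 and 80.8, 80.9 and 82.0 TPM in acf iaf-2, and its level in iaf-1 iaf-2 was 0.23 and 0.0897 TPM, within the range of WT. NCU06901, on chromosome VII, was at 254, 240 and 288 TPM in isw, 277, 361 and 267 in the triple mutant, 6.57, 11.7 and 10.1 in acf iaf-1, and 31.5, 18.8 and 22.2 in acf iaf-2. It had 1 read in all over the 3 WT libraries.

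NCU04706 and NCU04707, neighbours on chromosome VI, had no read in any WT library or in either iaf-1 iaf-2 library of series 118. NCU04707 was at 225, 202 and 209 TPM in isw, at least 945-fold above WT, and NCU04706 at 185, 187 and 177 TPM, at least 1040-fold above WT, each bound set by 3 reads over the WT libraries. NCU04707 reached 75.6, 64.4 and 60.8 TPM in acf iaf-1 but 22.9, 26.2 and 29.0 in acf iaf-2, and NCU04706 reached 31.2, 24.1 and 28.6 against 6.32, 4.50 and 7.29. Both genes were higher in acf iaf-1 than in acf iaf-2, the reverse of NCU08796 and NCU06901, with no overlap between the double mutants. NCU02306 on chromosome VII and NCU00850 on chromosome I differed from the others in iaf-1 iaf-2. NCU02306 was at 25.9 and 21.5 TPM there, against 292, 254 and 273 TPM in isw and 0.455, 0 and 2.30 in WT. NCU00850 was at 20.1 and 13.7 TPM in iaf-1 iaf-2, against 184, 126 and 165 in isw and 0.156, 0 and 0.197 in WT. In both genes the 2 iaf-1 iaf-2 libraries lay above every WT library. The eighth gene, NCU06475 on chromosome III, was at 179, 180 and 194 TPM in isw and at 131, 135 and 114 in the triple mutant. It was at no more than 4.18 TPM in any library of the other mutants. In iaf-1 iaf-2 it had 28 reads in all against 5 in WT, a ratio of 6.17 when scaled for library totals.

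The triple mutant and iaf-1 iaf-2 of series 118 have labels that differ by acf alone, and the rule did not use the contrast between them. On the log2(TPM + 1) scale, which understates changes of low genes, limma called 198 of the 245 genes higher and 7 lower in the triple mutant at an adjusted p under 0.05 over 9339 genes. Over all genes tested 22.1% were higher and 17% lower. Every library of the triple mutant lay above both iaf-1 iaf-2 libraries for 201 genes and below both for 12, against 27% and 20.9% of all genes. All 245 genes entered this test, and their median log2 change was 2.15, against 0.02 over all genes. A gene could pass its filter through isw or the triple mutant alone, so the counts of calls are given as a description.

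The largest change among those called was in NCU08796, with a log2 fold change of 8.36 ± 0.17 (SE; limma adjusted p = 2.92e-16), followed by NCU06901 at 8.14 ± 0.22 (1.28e-14), NCU04707 at 7.38 ± 0.14 (2.92e-16) and NCU16930 at 7.35 ± 0.19 (1.17e-14). NCU04707 has no read in iaf-1 iaf-2, so its fitted value depends on the 1 added. Of the 7 genes lower in the triple mutant, the 4 with the largest change are given. NCU06019, on chromosome VII, was at 57.9 and 59.8 TPM in iaf-1 iaf-2, above its 18.6, 14.7 and 16.3 TPM in isw, and at 19.9, 18.1 and 16.8 TPM in the triple mutant (-1.64 ± 0.20, adjusted p = 3.82e-06). NCU05788, also on chromosome VII, was at 64.8 and 49.9 TPM in iaf-1 iaf-2 and at 13.5, 16.3 and 22.5 in the triple mutant (-1.68 ± 0.29, adjusted p = 0.000185). NCU09981, on chromosome I, had no read in WT and was at 8.10 and 12.3 TPM in iaf-1 iaf-2, at least 52.2-fold above WT, and at 3.82, 2.63 and 3.40 TPM in the triple mutant (-1.37 ± 0.24, adjusted p = 0.000259). In these 3 genes the 2 strains did not overlap. NCU05126 also fell, by 1.70 ± 0.53 (adjusted p = 0.0204), but this call was lost without triple mutant replicate 1 or 2 or without iaf-1 iaf-2 replicate 2.

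**Figure D2:**
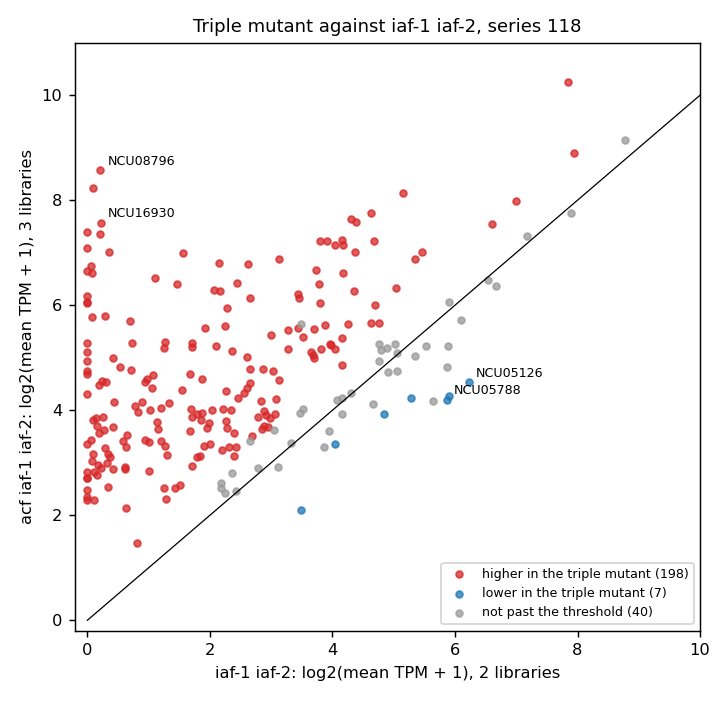
Mean level of each of the 245 genes in the triple mutant (vertical, 3 libraries) against iaf-1 iaf-2 (horizontal, 2 libraries), both as log2(TPM + 1). Points are coloured by limma's call, and the line marks equal levels; 198 genes lie above it as called higher, 7 are called lower, and 40 are not past the threshold.

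The 2 iaf-1 iaf-2 libraries differed from each other by a chi-square per degree of freedom of 130.5, above that of every other replicate pair, and several genes among the 245 differed with them. NCU00322, on chromosome III and among the highest in isw, was at 728 and 142 TPM in them, NCU07036 at 85.5 and 12.0 TPM, and NCU08655 at 91.6 and 26.5 TPM. None of these 3 passed the test of the triple mutant against iaf-1 iaf-2 (adjusted p = 0.26, 0.258 and 0.589). Across the 245 genes the sum of levels was 4612 TPM in the first library and 3036 in the second, against 680 to 771 TPM in WT, so the strain as a whole lay above WT in both.

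The acf single mutant was measured in series 111 and again in series 112. In series 111 the rule used none of the libraries, and 106 of the 245 genes passed the filter on low counts; the other 139 had too few reads to be tested. A gene could pass this filter through acf alone, and 6 of the 106 had no read in WT, so the count of calls is given as a description. edgeR's quasi-likelihood test called 83 higher and 5 lower in acf than in WT at an adjusted p under 0.05 over 7974 genes, where 31.6% of all genes tested were called higher and 34.4% lower. Without the filter on low counts 138 of 236 were called higher, against 27.3% of all genes. Over all 245 genes with no filter, every acf library lay above every WT library for 137 and below for 11, against 20.6% and 36.9% of all genes. Median-ratio scaling, chosen after the data were seen, gave 150 higher against 28.7% of all genes. The median over the 245 genes of the mean level was 1.12 CPM in acf and 0.155 CPM in WT, and the median ratio of means, with 1 added, was 1.43.

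In series 112, whose WT libraries also set the set-7 ceiling, 241 of the 245 genes passed the filter. A gene could pass it through acf or the triple mutant alone, so the counts of calls are given as a description. edgeR's quasi-likelihood test called 189 higher and 0 lower in acf than in WT over 8747 genes, where 15.2% of all genes tested were higher and 12% lower. No gene among the 245 was lower at an unadjusted p under 0.05 either, and DESeq2 called 190 higher and 0 lower. Every acf library lay above every WT library for 199 of the 245 and below for 0, against 19.3% and 19.5% of all genes. The median level over the genes was 2.57 CPM in acf against 0.230 CPM in WT and 0.284 CPM in set-7. Of the 83 genes called higher in acf of series 111, 78 were also called higher in series 112, which is 94.0% of the first list and 41.3% of the second, and 194 were higher in at least 1 series.

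**Figure D3:**
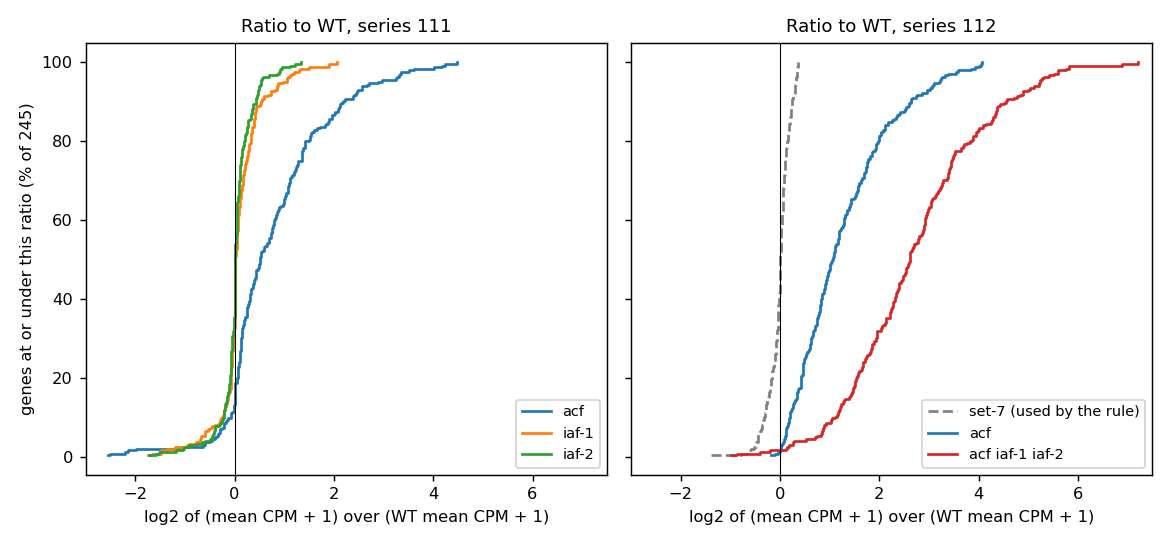
Cumulative share of the 245 genes (vertical, percent) by the log2 ratio of the group mean to the WT mean, in CPM with 1 added to both, for series 111 (left) and 112 (right). The iaf-1 and iaf-2 curves rise steeply at a ratio of 1, acf lies to the right of them with a median of 1.43 in series 111 and 2.09 in series 112, and the triple mutant lies furthest right with a median of 6.13; the dashed set-7 curve was used by the rule.

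Several of the genes with the largest change in acf of series 111 had no read at all in WT. NCU07089 and NCU07086, both on chromosome VI, had no read in any library of WT, iaf-1 or iaf-2 in series 111. NCU07089 was at 5.73, 5.61 and 3.36 CPM in acf, at least 34.0-fold above WT (edgeR adjusted p = 7.78e-05), and NCU07086 at 3.13, 4.27 and 3.63 CPM, at least 26.2-fold (7.70e-05). In series 112 NCU07089 was at 2.59, 3.00 and 2.92 CPM in acf against 0, 0 and 0.447 in WT, and NCU07086 at 6.39, 5.51 and 6.07 against 0, 0 and 0.112. In both series the acf and WT libraries did not overlap. These 2 genes were lower in isw than in acf iaf-1 and acf iaf-2: NCU07086 was at 15.8, 13.5 and 12.0 TPM in isw and at 26.5, 30.9 and 25.5 in acf iaf-1. In iaf-1 iaf-2 they were below isw, with no read of NCU07086 and 5 reads of NCU07089. NCU16482 on chromosome I and NCU05707 on chromosome III were at least 24.5-fold and 23.8-fold above WT in acf of series 111, NCU08837 on chromosome IV at least 12.9-fold and NCU05677 on chromosome III at least 11.6-fold. All 4 had no WT read in that series, and all 4 passed the test there (adjusted p between 1.00e-05 and 0.000358).

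NCU08796 rose in acf in both series. It was at 18.1, 21.2 and 14.9 CPM in acf of series 111 against 0.382, 0 and 0.155 in WT (log2 fold change 6.75 ± 0.42, edgeR adjusted p = 4.12e-07). In series 112 it was at 16.6, 19.9 and 18.6 CPM against 0, 0.337 and 0.112 (6.68 ± 0.32, adjusted p = 1.22e-09), and the difference between the series was 0.19 ± 0.94 (adjusted p = 0.888). Other genes of the largest isw ratios had few reads in acf. NCU16930 was at 0.347, 0.668 and 0.807 CPM in acf of series 111, with no read in WT and at least 4.43-fold above it, and at 3.90, 6.00 and 3.44 CPM in series 112 against 0.513, 0.674 and 0 in WT (3.43 ± 0.55, adjusted p = 0.000603). NCU06889, on chromosome VII, had no read in any library of series 111, and in series 112 it was at 0, 0 and 0.374 CPM in acf and at 0, 0.0843 and 0 in WT, which overlap.

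In iaf-1 and iaf-2 alone the shares of the genes that were called lay near or below those of all genes. The genes tested include some that passed the filter through acf alone. NCU07086 and NCU07089, with no read in WT, iaf-1 or iaf-2, could not be called, so the shares are given as a description. Of the 106 tested in series 111, edgeR's quasi-likelihood test called 19 higher and 9 lower in iaf-1, or 17.9% and 8.49% (all genes 15.9% and 13%). It called 6 higher and 9 lower in iaf-2, or 5.66% and 8.49% (all genes 10.1% and 9.48%). With close pairs summed these were 11 higher in iaf-1 and 0 in iaf-2, and without WT replicate 1 or 2 the iaf-2 count was 3 or 16. At an unadjusted p under 0.05, 39 of the 106 differed in iaf-1 (36.8%, against 41.6% of all genes) and 25 in iaf-2 (23.6%, against 34.4%). With no filter, every iaf-1 library lay above every WT library for 36 of the 245 and below for 14, against 14.7% and 21.4% of all genes. For iaf-2 the counts were 21 and 11, against 16.8% and 13.9%. The median ratio to WT over the 245 genes was 1.01 in iaf-1 and 1.00 in iaf-2. The 1 added to each mean holds this ratio close to 1 for a gene near silence in both strains.

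The difference between acf and each iaf mutant was tested itself. Against iaf-1, edgeR called 79 of the 106 genes higher and 8 lower in acf (all genes 28.7% and 30.5%), and 123 of 236 higher without the filter (24.5% of all genes). Against iaf-2, it called 86 higher and 7 lower (all genes 31.5% and 32.7%), and 146 of 236 without the filter (27.5% of all genes). With no filter, every acf library lay above every iaf-1 library for 127 of the 245 (21.9% of all genes) and above every iaf-2 library for 145 (22.2% of all genes). These comparisons share the acf libraries with each other and with acf against WT. A gene could pass the filter through acf alone here too, so the counts among the 106 are given as a description.

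Some of the genes rose in an iaf mutant as well as in acf. NCU07410, on chromosome I, was at 5.06, 4.78 and 3.78 CPM in iaf-1 and 5.21, 3.21 and 4.57 CPM in acf, against 0.510, 0 and 0.466 in WT and 0.222, 0.382 and 0.496 in iaf-2. It rose in iaf-1 by a log2 fold change of 3.81 ± 0.46 (edgeR adjusted p = 0.000202), and acf and iaf-1 overlapped, with a difference of 0.12 ± 0.30 (adjusted p = 0.748). In series 118 it was at 23.1 and 32.2 TPM in iaf-1 iaf-2, above its 12.3, 13.5 and 11.7 TPM in isw. NCU00437, on chromosome III, was at 6.75, 9.80 and 6.58 CPM in iaf-1, 3.21, 3.69 and 5.33 in iaf-2 and 3.99, 4.81 and 4.17 in acf, against 0.892, 2.49 and 0.622 in WT. All 3 single mutants lay above WT in every library, with log2 fold changes of 2.64 ± 0.39 in iaf-1 (adjusted p = 0.000624), 1.58 ± 0.42 in iaf-2 (0.0207) and 1.99 ± 0.42 in acf (0.00113). The iaf-2 call of NCU00437 was lost with close pairs summed, with only the compared groups in the model, and without WT replicate 1, WT replicate 3 or iaf-2 replicate 3.

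NCU00309 and NCU16494 moved in opposite directions in the single mutants. NCU00309, on chromosome III, was at 35.8, 26.8 and 35.1 CPM in WT, rose to 59.2, 55.2 and 52.4 in acf and fell to 8.63, 9.56 and 8.96 in iaf-1 and 11.0, 12.7 and 8.55 in iaf-2. The log2 fold changes from WT were 1.08 ± 0.14 (edgeR adjusted p = 2.14e-05), -1.73 ± 0.15 (2.40e-05) and -1.60 ± 0.15 (0.000126). NCU16494, on chromosome I, was at 37.6, 33.9 and 38.7 CPM in WT, 67.7, 60.1 and 69.8 in acf, 9.38, 18.2 and 13.3 in iaf-1 and 9.09, 11.3 and 14.5 in iaf-2. It rose by 1.15 ± 0.20 in acf (adjusted p = 0.000322) and fell by 1.3 ± 0.22 in iaf-1 (0.00116) and by 1.67 ± 0.22 in iaf-2 (0.000866). With close pairs summed the iaf-2 calls of both genes were lost. NCU06613, on chromosome IV, fell in iaf-1 to 0.750, 1.31 and 1.26 CPM from 3.57, 2.34 and 5.59 in WT (-1.60 ± 0.38, adjusted p = 0.00814) and rose in acf to 14.2, 16.4 and 18.0 CPM (2.40 ± 0.28, adjusted p = 9.55e-06); its iaf-1 call was lost with close pairs summed.

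In series 112 the triple mutant was measured beside acf. A gene could pass the filter through the triple mutant alone, so the counts of calls are given as a description. Against WT, whose libraries also set the set-7 ceiling, edgeR's quasi-likelihood test called 231 of the 241 genes tested higher and 2 lower in the triple mutant (all genes 28.6% and 26.3%). With no filter, 234 of the 245 had every triple mutant library above every WT library and 2 had every one below, against 25.3% and 29.7% of all genes. Against acf, 181 were called higher and 8 lower (all genes 25% and 23.2%), and 187 of the 245 had every library higher and 18 every one lower (25.5% and 31.7% of all genes). The median over the 245 genes of the mean level was 10.9 CPM in the triple mutant and 2.57 CPM in acf. As a percentage of the triple mutant's gain over WT, acf had a median gain of 25.6%.

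The genes with the largest difference between the triple mutant and acf were near silence in acf. NCU04706, on chromosome VI, was at 57.8, 53.0 and 57.4 CPM in the triple mutant and 0.152, 0.245 and 0 in acf (log2 fold change 8.63 ± 0.34, edgeR adjusted p = 5.41e-10). Its acf level overlapped WT, at 0, 0.169 and 0 CPM. NCU06889 was at 37.4, 36.6 and 38.8 CPM in the triple mutant (8.49 ± 0.45, adjusted p = 1.93e-09), and NCU01091 on chromosome V at 37.7, 31.0 and 39.1 CPM against 0.254, 0.122 and 0 in acf (8.00 ± 0.38, adjusted p = 2.37e-08). NCU00842, on chromosome I, was at 5.80, 7.48 and 5.79 CPM in the triple mutant and had 1 read in all in acf, a ratio of 311 with a 95% counting interval of 55.2 to 12314 (edgeR adjusted p = 1.07e-06).

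A smaller number went the other way. NCU07036, on chromosome IV, was at 13.7, 9.30 and 10.9 CPM in acf, at 5.77, 3.54 and 2.68 in WT and at 1.52, 2.17 and 1.53 in the triple mutant, so that acf lay above WT and the triple mutant below it in every library (triple mutant against acf -2.62 ± 0.30, edgeR adjusted p = 5.14e-06). The call of NCU07036 against WT (-1.06 ± 0.33, adjusted p = 0.0131) was lost without WT replicate 1 or triple mutant replicate 1. NCU06513, also on chromosome IV, was at 57.5, 61.4 and 55.5 CPM in acf and 28.5, 25.2 and 18.4 in the triple mutant, against 6.03, 14.5 and 7.6 in WT (-1.17 ± 0.23, adjusted p = 0.000941). Here both mutants lay above WT. NCU03415 on chromosome II and NCU06326 on chromosome IV were also lower in the triple mutant than in acf, by -1.29 ± 0.21 (adjusted p = 0.00019) and -1.27 ± 0.40 (0.0217); the call of NCU06326 was lost without acf replicate 1 or triple mutant replicate 1.

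Of the 245 genes, 7 carry a gene symbol or a name in the deposited tables. The gene named tetrahydroxynaphthalene reductase-2, after an enzyme of melanin synthesis in fungi, was at 57.0, 55.8 and 57.4 TPM in isw, 33.8, 35.8 and 30.9 in acf iaf-1 and 48.2, 40.8 and 47.0 in acf iaf-2, against 0.116, 0.273 and 0 in WT. In the acf single mutant tetrahydroxynaphthalene reductase-2 rose by a log2 fold change of 4.77 ± 0.60 in series 111 (edgeR adjusted p = 2.07e-05) and 5.90 ± 0.36 in series 112 (1.41e-08), and in iaf-1 iaf-2 it stayed at 0.635 and 0.620 TPM. The gene amt (NCU07176, chromosome V) was at 30.7, 27.9 and 22.0 CPM in acf of series 111, against 1.02, 2.78 and 2.02 in WT, 1.69, 1.43 and 2.24 in iaf-1 and 2.44, 1.65 and 1.49 in iaf-2. The acf libraries of amt lay above all the others, with a log2 fold change over WT of 4.10 ± 0.28 (adjusted p = 2.14e-07). In series 112 amt was at 150, 153 and 159 CPM in acf and 89.2, 76.9 and 86.9 in the triple mutant, against 9.23, 10.3 and 8.05 in WT. There the triple mutant lay below acf in every library (-0.78 ± 0.18, adjusted p = 0.00297).

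The hsp20 family gene, named after small heat shock proteins that keep unfolded proteins from aggregating, behaved otherwise. It was at 168, 121 and 145 TPM in isw, 170, 245 and 227 in the triple mutant and 349 and 126 in iaf-1 iaf-2, against 4.17, 11.7 and 12.8 in WT, and the triple mutant and iaf-1 iaf-2 overlapped (limma log2 difference 0.01 ± 0.56, adjusted p = 0.995). In series 111 the hsp20 family gene was at 8.06, 6.93 and 5.6 CPM in iaf-1 and 3.65, 2.94 and 3.23 in acf, against 0.892, 1.17 and 1.24 in WT, and acf was lower than iaf-1 by -0.87 ± 0.22 (edgeR adjusted p = 0.00465). In series 112 acf was at 20.5, 24.7 and 21.0 CPM and WT at 23.0, 9.35 and 32.8, which overlap (0.06 ± 0.37, adjusted p = 0.924), while the triple mutant was at 512, 460 and 387 CPM.

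The gene set-5 (NCU06119), named for a SET domain, lies beside NCU06120 on chromosome VII, and both were among the 245. NCU06120 was at 349, 331 and 364 TPM in isw against 48.1, 67.9 and 71.7 in WT, and set-5 at 18.0, 20.0 and 25.6 against 3.48, 5.81 and 2.42. Both were higher in acf iaf-1 than in isw in every library, at 475, 562 and 475 TPM for NCU06120 and 26.9, 35.7 and 29.2 for set-5. In series 112 NCU06120 rose in acf by a log2 fold change of 1.29 ± 0.17 (edgeR adjusted p = 4.08e-05) and set-5 by 1.42 ± 0.27 (0.00114). The gene stk-35 (NCU05655, chromosome III), named as a serine/threonine protein kinase, had no read in WT of series 118 and was at 15.1, 19.8 and 21.5 TPM in isw, at least 246-fold higher. In series 112 stk-35 was at 1.12, 0.673 and 0.599 CPM in acf and 4.6, 4.78 and 5.57 in the triple mutant against 0, 0.0843 and 0.112 in WT, so the 3 strains did not overlap. The gene pmg (NCU03509, chromosome II) was at 149, 232 and 223 TPM in isw against 17.6, 11.3 and 7.63 in WT. In the acf single mutant of series 112 pmg was at 11.9, 27.2 and 16.5 CPM, which overlaps WT at 3.98, 18.0 and 6.37 (0.95 ± 0.53, adjusted p = 0.217), while the triple mutant was at 233, 139 and 182 CPM.

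The invertase gene inv (NCU04265, chromosome V), whose enzyme splits sucrose outside the cell, was the highest of the 245 in isw, at 503, 485 and 543 TPM against 123, 121 and 98.7 in WT. It was at 1250, 1203 and 1178 TPM in the triple mutant, at 540.4, 928 and 809 in acf iaf-1, at 966, 766 and 828 in acf iaf-2 and, for iaf-1 iaf-2, at 265 and 191. All of these but iaf-1 iaf-2 and the first acf iaf-1 library lay above isw. In series 112 inv rose in acf to 273, 444 and 351 CPM from 156, 224 and 181 in WT (log2 fold change 0.97 ± 0.17, edgeR adjusted p = 0.000702). In series 111 it fell in acf to 786, 851 and 519 CPM from 4883, 2929 and 4721 in WT (-2.23 ± 0.26, adjusted p = 1.06e-05). WT itself was thus at 4177 CPM on average in series 111 and 187 in series 112. inv also fell in iaf-1 (-1.55 ± 0.25, adjusted p = 0.00107) and in iaf-2 (-1.03 ± 0.25, adjusted p = 0.0151), the latter call being lost with close pairs summed and without WT replicate 1 or iaf-2 replicate 3.

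In 5 of the 245 genes the WT mean was over 5 CPM in series 111 and at least 5-fold above WT of series 112. They were chosen after their values were seen. Besides inv these were NCU03415, pmg, NCU16494 and NCU04630. NCU03415, on chromosome II, was at 2458, 2852 and 2476 CPM in WT of series 111 and at 31.0, 40.8 and 25.9 in series 112. It fell in acf of series 111 to 585, 585 and 203 CPM (-2.23 ± 0.33, edgeR adjusted p = 7.40e-05) and in series 112 was at 38.5, 45.3 and 43.1 CPM in acf, next to WT (0.41 ± 0.21, adjusted p = 0.155).

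Whether the acf effect itself differed between the series was tested with an interaction over the 4 groups, for the 155 of the 245 genes that passed the filter there. The effect is the signed log2 change from WT to acf, so a fall counts as smaller than a rise, whatever its size. edgeR called the effect larger in series 111 for 18 and smaller for 21 at an adjusted p under 0.05 over 8252 genes. Of all genes tested 25.7% were called larger and 21.8% smaller. The shares among the 155 genes were 11.6% and 13.5%, below those of all genes. Series and any other difference between the 2 sets of libraries, such as what the tag pass0 stands for, cannot be told apart. The genes called in opposite directions in the 2 series numbered 3. These were inv, NCU02361 and NCU14161, which is not placed on a chromosome. NCU02361, on chromosome VII, was at 13.0, 14.2 and 12.5 CPM in acf of series 111 against 65.7, 51.9 and 67.4 in WT, and at 26.3, 35.2 and 30.2 in acf of series 112 against 18.6, 11.3 and 12.4. It fell in the first (-1.91 ± 0.22, adjusted p = 9.95e-06) and rose in the second (1.16 ± 0.25, adjusted p = 0.00415). For NCU14161 the fall in series 111 (-2.20 ± 0.66, adjusted p = 0.0101) was lost without WT replicate 2, and the rise in series 112 (0.87 ± 0.30, adjusted p = 0.0436) was lost with a replicate block and on leaving out WT replicate 1 or 3 or any 1 of the acf libraries.

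**Figure D4:**
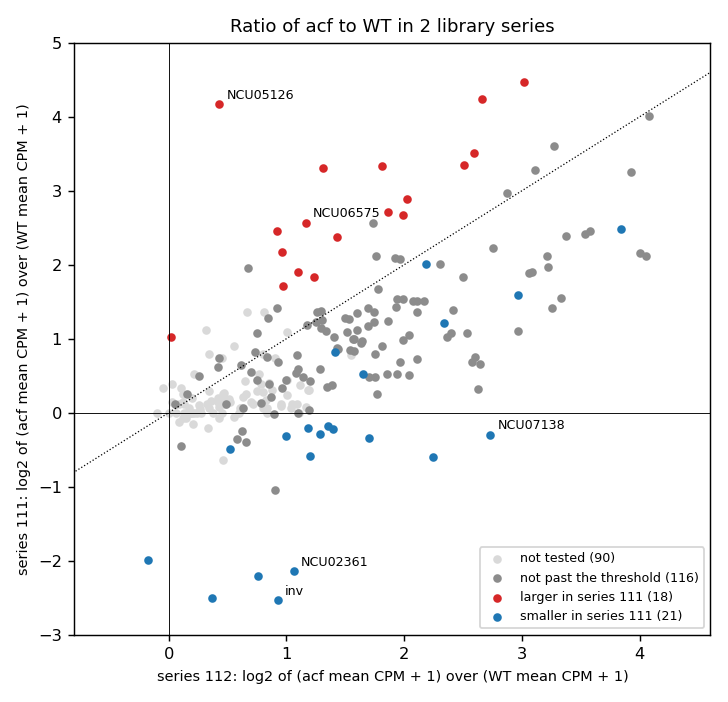
Ratio of the acf mean to the WT mean, as log2 with 1 CPM added to both, for each of the 245 genes in series 111 (vertical) and series 112 (horizontal). Colours give the interaction test's call on the signed log2 change, with 18 genes larger and 21 smaller in series 111, where a fall counts as smaller than a rise. The dotted line marks equal ratios, and inv and NCU02361 lie below 0 in series 111 and above it in series 112.

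NCU07138, on chromosome VI, overlapped WT in acf of series 111, at 14.4, 15.8 and 10.6 CPM against 18.3, 12.1 and 20.4 (edgeR log2 fold change -0.01 ± 0.25, adjusted p = 0.967), and rose in series 112 to 82.9, 58.7 and 71.6 CPM from 10.1, 9.27 and 10.2 (2.89 ± 0.19, adjusted p = 2.35e-08). NCU06575, on chromosome IV, rose in both, more in series 111, where it was at 9.90, 8.82 and 9.68 CPM in acf against 0.637, 0.878 and 0.777 in WT. NCU05126, on chromosome VI, was at 39.4, 40.3 and 42.4 CPM in acf of series 111 against 1.27, 1.76 and 0.932 in WT (5.23 ± 0.44, adjusted p = 9.34e-07). In series 112 NCU05126 was at 475, 296 and 352 CPM in acf and 433, 159 and 241 in WT, which overlap (0.47 ± 0.62, adjusted p = 0.624).

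The 245 genes were also described by place, which the ratios of the rule did not use, from the gene order of the RefSeq table of assembly NC12. The genes that the rule left out by name include a block of consecutive locus numbers. Of the 245, 243 matched that table and 237 were placed on a chromosome. Chromosome VII held 54 of them, 5.18% of its 1042 genes, against 1.80% to 2.43% of the genes on each of the other 6. Among the 50 genes at each chromosome end lay 16 of the 237, or 6.75%, against 7.21% of all placed genes. The 111 genes that met every ratio but exceeded the set-7 ceiling differed here: 29 of their 108 placed members, or 26.9%, lay among those end genes. Their median gene number from the nearest end was 109.5 against 252 for the 245. Chromosome VII held 17 of these 108, or 15.7%, and 22.8% of the 237. Members had a shorter span in the table, with a median of 1325 bp against 2127 bp for all genes. The isw and double mutant ratios of the rule used TPM, which divides reads by gene length, with a constant added to each mean. At equal reads a raised gene passed these thresholds more easily if it was short. The rule thus favoured short genes, and the difference in span is given as a description.

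Many of the 245 were neighbours. A run was taken as 2 or more of them with at most 1 other gene between successive ones, and 93 of the 237 placed genes, or 39.2%, lay in 36 such runs, while 8.26% of all placed genes lay within the same distance of one of the 245. Of the runs, 11 held 3 or more, with 43 genes in all. Genes left out by name could have joined, lengthened or added runs. The longest run among the 245, on chromosome IV, held 8 of the 10 genes from NCU08839 to NCU16876. Its 8 group means ran from 0 to 3.77 TPM in WT of series 118, from 4.65 to 48.2 in isw and from 4.83 to 48.9 in the triple mutant, and its medians were 14.6 TPM in acf iaf-1 and 10.1 TPM in acf iaf-2. The median for iaf-1 iaf-2 was 1.88. Without strand-specific counts, reads of neighbours that overlap cannot be separated, and no source used here gives the strand setting of the counting.

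The other long runs differed among themselves in the double mutants. The run of 5 genes on chromosome VI from NCU04705 to NCU12078, which holds NCU04706 and NCU04707, had a median of 62.4 TPM in isw, 71.5 in the triple mutant, 11.0 in acf iaf-1, 4.37 in acf iaf-2, and 0 for iaf-1 iaf-2, with no read of any of the 5 in WT. The run of 5 on chromosome VII from NCU06164 to NCU06160 had medians of 27.0 TPM in isw and 24.5 in the triple mutant, and 0.535 in iaf-1 iaf-2. A run of 4 on chromosome III from NCU06475 to NCU16633 had 20.4 TPM in isw, 22.4 in the triple mutant, 3.06 and 3.24 in acf iaf-1 and acf iaf-2, and a higher 5.83 in iaf-1 iaf-2. The run of 3 on chromosome VII from NCU06886 to NCU06889 was at a median of 80.3 TPM in isw and 106 in the triple mutant, against 14.2 in acf iaf-1 and 18.6 in acf iaf-2, and had 37.2 CPM in the triple mutant of series 112 against 0.986 in acf.

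**Figure D5:**
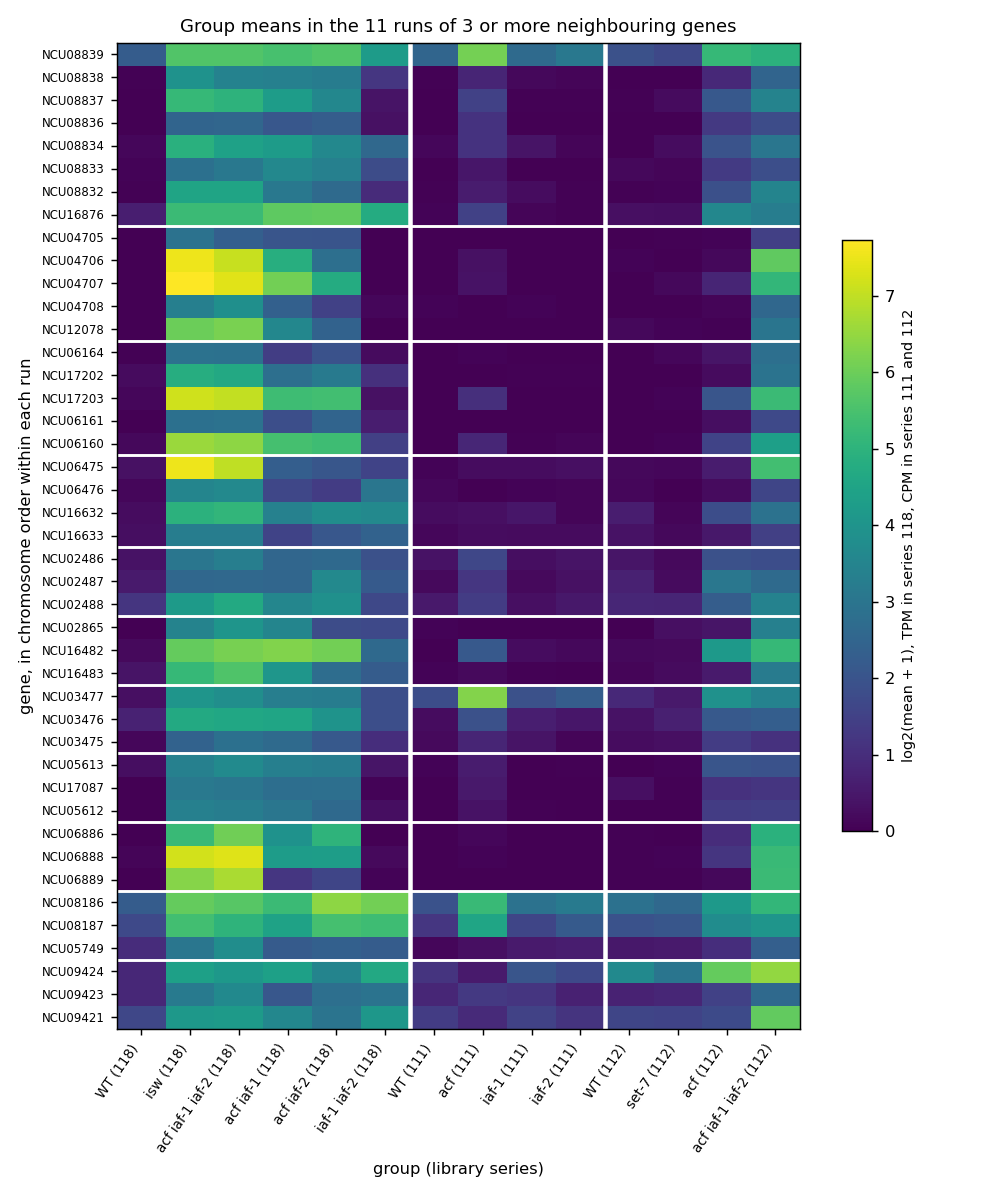
Group means, as log2(mean + 1), of the 43 genes in the 11 runs of 3 or more neighbours, with genes as rows in chromosome order, white lines between runs, and groups as columns (TPM in series 118, CPM in series 111 and 112). Within most runs the isw and triple mutant columns are bright together and the WT, iaf-1, iaf-2 and set-7 columns are dark, and the iaf-1 iaf-2 column is dark in the chromosome VI run (median 0 TPM) and brighter in the chromosome III run (median 5.83 TPM).

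The 111 genes over the set-7 ceiling are the set most like the 245, and their values stand side by side here with no test. Every acf library of series 111 lay above every WT library for 80.2% of them and for 55.9% of the 245, every iaf-1 library for 36.9% and 14.7%, and every iaf-2 library for 18.9% and 8.57%. The median of their mean levels was 1.05 TPM in WT and 38.1 TPM in isw, against 0.288 and 20.4 for the 245. The ratio in iaf-1 iaf-2 was at least 2 for 57.7% of the 111 genes and for 57.1% of the 245.

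The label of the 245 genes, repressed by ISWI and in need of ACF but not of PRC2, was compared with contrasts that share no library with the rule. In acf of series 111 every library lay above every WT library for 137 of the 245 (20.6% of all genes). In series 112 every triple mutant library lay above every acf library for 187 (25.5% of all genes). The triple mutant was thus the higher of these strains for most of the genes, and not every gene was higher in acf than in WT, so the genes are called here by the rule that chose them.

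Markers of conidia, the asexual spores, and of sexual development were measured in the same libraries, and none of the 8 conidiation and 9 sexual markers is among the 245. The summed level of the sexual markers without the pheromone gene mfa-1 was 281 to 395 TPM in WT of series 118, 658 to 777 in isw, 774 to 895 in the triple mutant, 888 to 936 in acf iaf-1, 447 to 802 in acf iaf-2. For iaf-1 iaf-2 it was 411 to 714. Of the 9 markers, 7 had a mean above WT in isw and 8 in the triple mutant, and 1 was below in each. That one was asd-1, which made up most of the WT sum, at 335 TPM in WT, 289 in isw and 292 in the triple mutant but 737 in acf iaf-1 and 571 in acf iaf-2. In isw and the triple mutant the rise of the sum lay mostly in pre-2 and poi-2. The means of pre-2 were 275 and 377 TPM against 1.71 in WT, and those of poi-2 112 and 139 against 1.98. The marker ccg-4 had a mean of 22.8 TPM in acf iaf-1 and 0 in WT and iaf-1 iaf-2. It was at 0.111 in acf iaf-2, 0.268 in isw and 0.330 in the triple mutant. mfa-1 itself had a mean of 22.1 TPM in WT, 31025 in isw and 12518 in the triple mutant, and fmf-1 was listed at 0 in WT and isw. The sexual sum was also higher in acf, at 85.6 to 97.5 CPM against 60.1 to 61.8 in WT of series 111. There 4 markers were above WT and 4 below, with poi-2 at 23.7 CPM against 2.56 and asd-1 at 61.2 against 50.3. In series 112 the sexual sum was 884 to 1041 CPM in acf against 538 to 720 in WT, with 6 above and 2 below. There asd-1 was at 927 CPM against 607 and poi-2 at 45.6 against 3.32.

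The conidiation sum was 1000 to 1433 TPM in isw and 1743 to 3636 in WT of series 118. It overlapped WT in the triple mutant (1309 to 2530), acf iaf-1 (1775 to 2158), acf iaf-2 (1588 to 3759) and iaf-1 iaf-2 (2067 to 4255). In isw 4 of the 8 conidiation markers had a mean above WT and 4 below. The sum was carried by ccg-1, at 805 TPM in isw against 2240 in WT, and con-8, at 198 against 562, while the hydrophobin gene eas was at 147 against 25.8 and con-10 at 32.4 against 16.6. In acf the conidiation sum was 1410 to 1599 CPM against 751 to 1781 in WT of series 111. In series 112 it was 1897 to 2548 against 2437 to 3672. Its markers went both ways. In series 111 the acf mean of eas was 643 CPM against 37.6 in WT, of csp-1 137 against 49.8 and of con-8 35.0 against 7.35. The means of ccg-1 (618 against 937), con-10, fl and con-6 were lower. In series 112 eas was at 93.9 against 18.2, with con-6 also higher, and ccg-1, con-8, con-10, fl and csp-1 were lower. The part of these tissues in the levels of the 245 genes was not tested.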

How the data were processed

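Per the labels' protocols, the library kit was one for mRNA that keeps strand. Reads were trimmed, aligned and counted by the authors with tools that the submitters' processing notes list, among them HISAT2 2.1.0, Trim Galore 0.4.4 with cutadapt 1.14, Subread 1.6.2 (featureCounts) and SAMtools 1.9. No source used here gives the build, annotation or strand setting, and no coordinates are printed. For series 111 and 112 the deposited values are unnormalized counts, and for series 118 the authors deposited TPM. Each TPM value was a whole multiple of its gene's step within 0.001 (100% of genes), which gave whole reads and library totals. ChIP and MNase samples, 53 in number, were not analysed here.

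CPM are counts over the library total. Counts were tested with edgeR 4.0.16 (quasi-likelihood, TMM, filterByExpr, robust) over all groups of a series, and TPM with limma 3.58.1 (trend, robust) on log2(TPM + 1) over genes with 2 or more libraries at 1 TPM or above, in R 4.3.3. Calls use Benjamini-Hochberg adjusted p under 0.05 over all genes tested. Folds against no reads take 3 reads, summed over a group, as a floor. Floors and exact 95% counting intervals cover counting error only: PCR copies are not independent molecules. edgeR was checked on simulated counts, and limma on simulated TPM values without counting noise. In both, changes were placed only in genes above a minimum level, so changes of genes near silence were not checked. Alternatives were DESeq2 1.42.0, median-ratio scaling, no filter, fewer groups, a replicate block, close pairs summed, a pseudocount of 0.1, edgeR on recovered reads and leaving out each library.

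The 245 genes, the marker lists and the tests were chosen with earlier results of these data known. Named genes are the 8 highest isw ratios and levels, every named gene, the extremes among calls of each test, the 4 interaction calls of lowest p and the genes beside each threshold; others are said to be outside the rule. Classes of gene product were planned and left out, since no product names were used here.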

Additional observations from a re-analysis of the deposited data

Results flagged for a closer look

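The acf effect was measured against WT in series 111 and again in series 112. An interaction term over both series (edgeR's quasi-likelihood test) found that it differed for 39 of the 155 genes tested. The signed effect was larger in series 111 for 18 genes and smaller for 21, and a fall counts as smaller than a rise. These are 11.6% and 13.5% of the genes tested, against 25.7% and 21.8% of all genes, and the gap between these shares was not tested. The differences of lowest p, series 111 minus series 112 on the log2 scale, were -2.98 for NCU02361 (adjusted p = 2.84e-06), -2.81 for NCU07138 (7.20e-06), -3.11 for inv (9.67e-06) and 2.70 for NCU06575 (1.01e-05). NCU05126 differed by 4.85 (1.39e-05). No cause was tested.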

How the results depend on the processing

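Among 279 values of named genes that passed a test, no direction reversed in 3057 comparisons with an alternative. Leaving out each library gave 87 to 101 genes higher in acf than in WT of series 111, 15 to 25 in iaf-1, 3 to 16 in iaf-2, 77 to 87 in acf against iaf-1, 85 to 98 in acf against iaf-2, 173 to 177 in acf of series 112, 231 to 233 in the triple mutant of series 112, 171 to 176 in the triple mutant against acf and 186 to 202 against iaf-1 iaf-2. Without WT replicate 1 or 2 of series 111 the iaf-2 counts were 3 higher and 3 lower or 16 higher and 11 lower, against 6 and 9, so the balance of the iaf-2 calls turned with 1 library. Without the filter on low counts, 138 genes were higher in acf than in WT of series 111, 123 than in iaf-1 and 146 than in iaf-2, of 236 tested (all genes 27.3%, 24.5% and 27.5%). With close pairs summed, which leaves 2 libraries a group, 11 were higher in iaf-1 and 0 in iaf-2, and a model of WT and iaf-2 alone gave 2 higher in iaf-2.

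Replicate numbers did not pair the samples: same-numbered libraries of different groups correlated in their deviations between -0.47 and 0.52. With a replicate block the counts higher were 101 in acf of series 111, 20 in iaf-1, 6 in iaf-2, 92 in acf against iaf-1, 101 against iaf-2, 183 in acf of series 112, 232 and 175 in the triple mutant against WT and acf, and 196 against iaf-1 iaf-2. Of the 279 values, 36 lost their call under at least 1 alternative. Median-ratio scaling, chosen after the data were seen, moved the counts of genes with no overlap between groups by less than 1.5 times. In series 111, 139 of the 245 genes had too few reads to be tested.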
